A study of Hydra vulgaris with 36 samples.

Results

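In whole animals of Hydra vulgaris, a freshwater polyp, 98 of the 12410 genes in the deposited table were higher after treatment with DAPT than after its solvent DMSO, both when the inhibitor was withdrawn and during the 6 h that followed. The median member was 2.77-fold higher in DAPT at 0 h, 2.72-fold at 3 h and 2.26-fold at 6 h, and the member with the largest difference was 27.4-fold, 22.5-fold and 14.3-fold higher at these times. The members were chosen by these values. Counts-per-million (CPM) of each library were taken by column total and turned into log2(CPM + 0.5), and the median of the column over all genes was subtracted. A gene was a member when its mean CPM over the 36 libraries was at least 2 and the mean of the 6 DAPT libraries lay at least 0.7 above the mean of the 6 DMSO libraries on this log2 scale at each of the 3 times, which is a 1.62-fold difference. Values of DAPT against DMSO at these times therefore describe the choice, and calls of these differences given below are not used as support.

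DAPT animals had spent 48 h in 20 µM DAPT with 1% DMSO, and DMSO animals had spent the same 48 h in 1% DMSO alone. Both were collected at the end of this incubation (0 h), or 3 h or 6 h after the DAPT solution had been exchanged for 1% DMSO, so the solvent was present in all 6 groups at all times. All animals were of the Basel strain, had gone without food for 24 h before the incubation, and were pooled at about 25 per sample. Each group held 6 libraries that the labels call biological replicates, and the stated purpose was to find genes under transcriptional control of Notch.

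Notch is a cell surface receptor that is activated by ligands on neighbouring cells. The protease gamma-secretase then cuts the receptor, and the freed intracellular part enters the nucleus and switches on target genes, which in many animals include repressors of the HES family. DAPT blocks gamma-secretase, which also cuts other membrane proteins. In Hydra, animals treated with this inhibitor are known for a block in the maturation of nematocytes, the stinging cells, and for buds that fail to form a proper boundary with the parent.

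The total counts per library ranged from 5692414 to 15310480, and the scaling factors (TMM) from 0.6263 to 1.372. The lowest factor belonged to DMSO 6 h replicate 4. The columns of the table carry the letters S and P in place of the treatment, and these were read as DMSO and DAPT. Under the opposite reading the 98 genes would be lower in DAPT, and the changes over time given for DAPT would be those of DMSO. The gene identifiers come from a de novo transcript assembly, and 0 of them were found in the RefSeq gene table, so members are described by identifier, level and time course. The sources used here pair none of them with a name or a role, and neither a pathway list nor a marker list of a cell type could be applied. In whole animals, more cells of a type and more RNA per cell cannot be told apart. Transcript lengths were not used here, so levels of different genes are shares of the counts and not molecule numbers.

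Of the 12410 genes, 10405 reached a mean CPM of 2. Among these, 207 were higher in DAPT by the threshold at 0 h, 185 at 3 h and 168 at 6 h. The members made up 47.3% of the 207 genes higher at 0 h. Of the other 109, 97 lay under the threshold at 6 h and 76 at 3 h, 64 of them at both times. Another 4 genes met the threshold at all times but not the CPM minimum. On the same log2 scale, the median difference over all 10405 genes was 0.05, 0.07 and 0.05 at the 3 times.

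All 98 members passed edgeR's filter on low counts, which kept 12253 genes. In edgeR's quasi-likelihood fit over all 36 libraries, 97 members were called higher in DAPT at 0 h (1.89% of all genes tested were), 90 at 3 h (1.61%) and 84 at 6 h (1.13%). A gene was called when its p adjusted by Benjamini and Hochberg over all tested genes was under 0.05. At all 3 times 77 members were called (0.8% of all genes). The member that was not called at 0 h was TRINITY_DN10682_c0_g1, with differences of 0.73, 0.85 and 1.01 at 0 h, 3 h and 6 h on the centred log2 scale. All 6 DAPT libraries lay above all 6 DMSO libraries in 83 members at 0 h (1.92% of all genes), in 64 at 3 h (1.16%) and in 57 at 6 h (0.806%), and at each of the 3 times in 41 (0.395%). The rule asked for these differences in the same libraries, so high counts among the members were largely fixed in advance. The shares over all genes are no fair measure for them, and nothing is read from these counts.

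**Figure D1:**
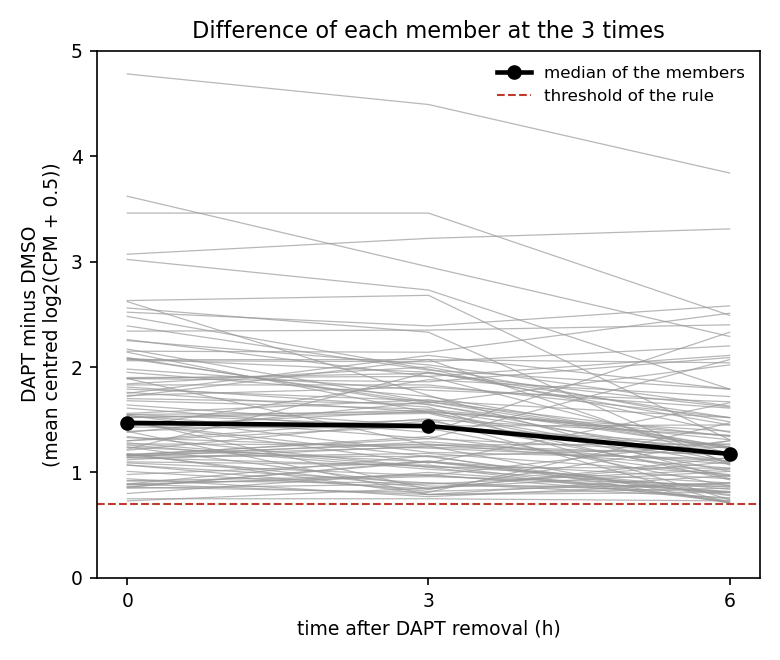
Difference between DAPT and DMSO (mean centred log2(CPM + 0.5), vertical axis) of each of the 98 members at 0 h, 3 h and 6 h after removal (grey lines), with the median of the members in black and the threshold of 0.7 as a dashed line. The median line runs through 1.47, 1.44 and 1.18, and single genes reach 4.78 at 0 h.

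Most members had their smallest difference at 6 h. On the centred log2 scale the median difference was 1.47 at 0 h (quartiles 1.16 and 1.90), 1.44 at 3 h (1.07 and 1.86) and 1.18 at 6 h (0.91 and 1.52). The difference was smallest at 6 h in 66 members, at 3 h in 20 and at 0 h in 12. It was largest at 0 h in 47 members, at 3 h in 33 and at 6 h in 18. From 0 h to 6 h it became smaller in 74 members and larger in 24, with a median change of -0.23. In 36 members the 6 h difference lay within 0.2 of that at 0 h, in 28 it was more than 0.5 smaller, and in 3 more than 0.5 larger. A difference of at least 1, which is a doubling, was present in 83 members at 0 h, 78 at 3 h and 66 at 6 h.

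The 4 largest differences belonged to genes whose mean in DMSO at 0 h was between 0.51 and 13.8 CPM. TRINITY_DN2004_c0_g1, which had the largest mean difference, lay between 38.6 and 77.2 CPM in the DAPT libraries of 0 h with a median of 62.1, against 0.925 to 3.75 with a median of 1.56 in the DMSO libraries. At 3 h it lay at 23.1 to 86.1 CPM (median 56.8) in DAPT against 0.842 to 4.49 (median 1.73) in DMSO, and at 6 h at 21.3 to 60.7 (median 35.9) against 1.15 to 5.35 (median 1.95). CPM per library are given after TMM scaling. The groups stayed far apart at every time, and the lowest DAPT library held several times the level of the highest DMSO library. Its centred log2 differences were 4.78, 4.49 and 3.84.

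TRINITY_DN343_c0_g1 kept its difference over the whole period, with values of 3.07, 3.22 and 3.31. Its level varied more between libraries than that of most members, from 64.7 to 175 CPM (median 90.1) in DAPT at 0 h, against 6.2 to 36.1 (median 8.59) in DMSO. At 6 h it stood at 21.8 to 140 CPM (median 56.5) in DAPT against 2.72 to 12 (median 5.07) in DMSO. At all 3 times the treatments were separate, and the medians of both treatments were lower at 6 h than at 0 h. A second gene with the same DN number in its identifier, TRINITY_DN343_c1_g1, was also a member, with differences of 2.07, 2.07 and 2.04.

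TRINITY_DN2171_c0_g1 lay at 7.26 to 13.6 CPM (median 9.84) in DAPT at 0 h and was scarce in control animals, at 0.328 to 0.841 CPM (median 0.422). Its difference was 3.46 at 0 h and 3.46 at 3 h, and 2.49 at 6 h. TRINITY_DN3649_c0_g2 had differences of 3.62, 2.95 and 2.29. Its DAPT libraries lay at 11.8 to 30.1 CPM (median 18.7) at 0 h and 8.49 to 15.4 (median 13.6) at 6 h, against 0.316 to 3.4 (median 1.37) and 1.46 to 5.07 (median 1.89) in DMSO. In both genes the 2 treatments stayed apart at all 3 times.

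**Figure D2:**
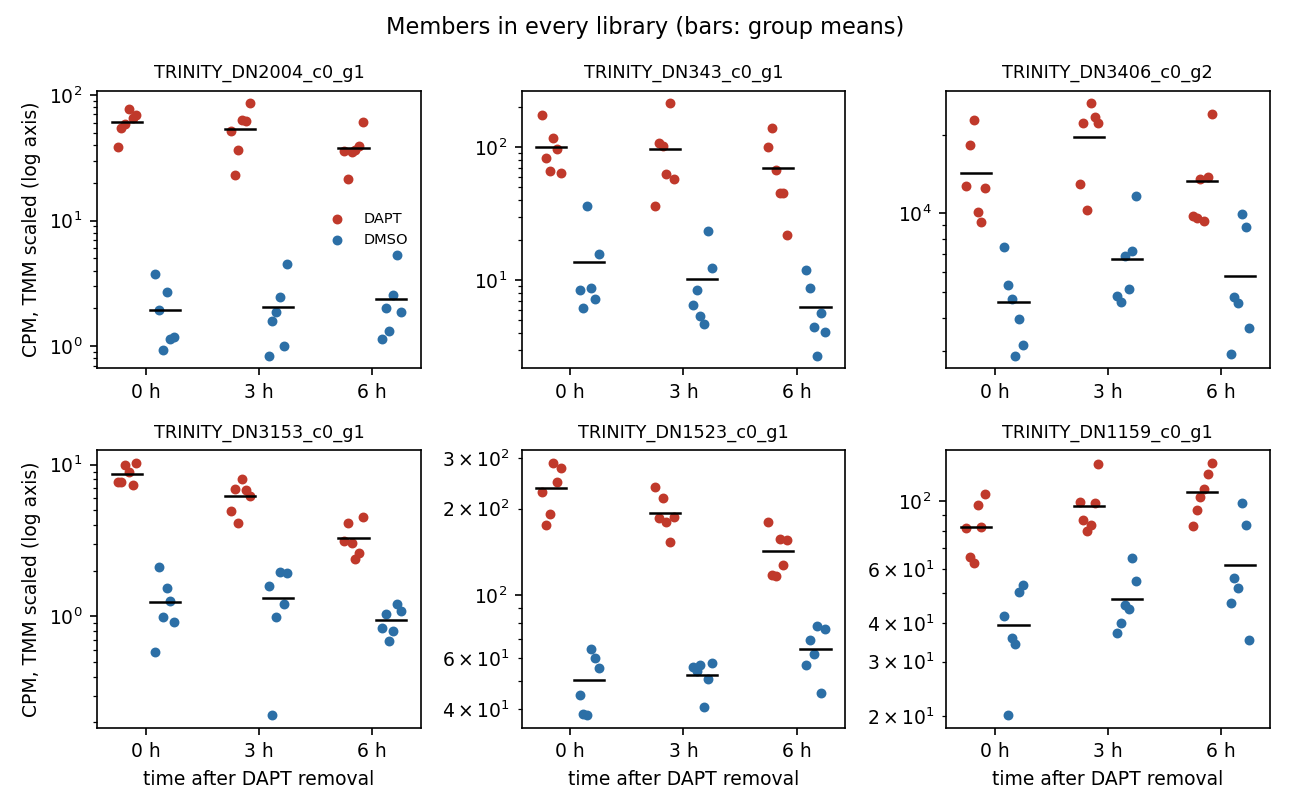
CPM after TMM scaling (log axis) of 6 members in every library, DAPT in red and DMSO in blue, by time after removal, with bars at the group means. TRINITY_DN2004_c0_g1 and TRINITY_DN343_c0_g1 stay apart between treatments at all times, TRINITY_DN3406_c0_g2 overlaps at 3 h and 6 h, TRINITY_DN3153_c0_g1 and TRINITY_DN1523_c0_g1 are lower in DAPT at 6 h than at 0 h, and TRINITY_DN1159_c0_g1 has its highest DAPT mean at 6 h.

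The member with the highest share of counts, TRINITY_DN3406_c0_g2, ranked 11 of 12410 by mean CPM. The next, TRINITY_DN1822_c0_g1, ranked 95. TRINITY_DN3406_c0_g2 lay at 9242 to 22810 CPM (median 12615) in DAPT at 0 h, against 2869 to 7422 (median 4341) in DMSO. At 3 h the values were 10338 to 26363 (median 22181) in DAPT and 4582 to 11610 (median 6014) in DMSO, and at 6 h 9337 to 23945 (median 11708) in DAPT and 2899 to 9968 (median 4693) in DMSO. The treatments were separate at 0 h and overlapped at 3 h and 6 h, where DMSO libraries reached into the lower end of the DAPT range. Its differences were 1.68, 1.60 and 1.31.

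TRINITY_DN1822_c0_g1 averaged 2993 ± 916 CPM in DAPT at 0 h and 935 ± 287 CPM in DMSO (SD, n = 6 each), and its neighbour in the assembly, TRINITY_DN1822_c0_g2, averaged 2246 ± 627 CPM in DAPT and 847 ± 209 CPM in DMSO. At 0 h, 3 h and 6 h the difference was 1.73, 1.81 and 1.61 in the first gene, and 1.44, 1.58 and 1.35 in the second. TRINITY_DN704_c0_g1 was among the members whose difference did not shrink. Its DAPT libraries lay at 1535 to 3083 CPM (median 2079) at 0 h and 1513 to 2982 (median 2497) at 6 h, against 360 to 970 (median 526) and 338 to 1061 (median 557) in DMSO. Its differences were 1.89, 1.86 and 2.09, with no overlap between treatments at any time.

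Together the 98 genes took 3.97 ± 0.475% of all counts in DAPT at 0 h, 4.19 ± 1.05% at 3 h and 3.15 ± 0.46% at 6 h. In DMSO they took 1.28 ± 0.134%, 1.5 ± 0.41% and 1.21 ± 0.233% at these times (mean ± SD, n = 6 libraries each). Without TRINITY_DN3406_c0_g2 the other 97 took 2.39 ± 0.143%, 2.36 ± 0.485% and 1.84 ± 0.193% in DAPT against 0.817 ± 0.0408%, 0.858 ± 0.189% and 0.698 ± 0.0761% in DMSO. At 6 h the 6 DAPT libraries of this second share lay between 1.51% and 2.1%, all below the 2.23% to 2.63% of the DAPT libraries of 0 h. The DMSO libraries showed the same order, with 0.594% to 0.776% at 6 h, all below the 0.78% to 0.87% at 0 h. These shares rest on library totals. Scaled by totals, the median log2 change of all genes from 0 h to 6 h was -0.21 in DAPT and -0.19 in DMSO. With TMM it was -0.03 and -0.02, so part of the fall in share is not particular to the members.

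**Figure D3:**
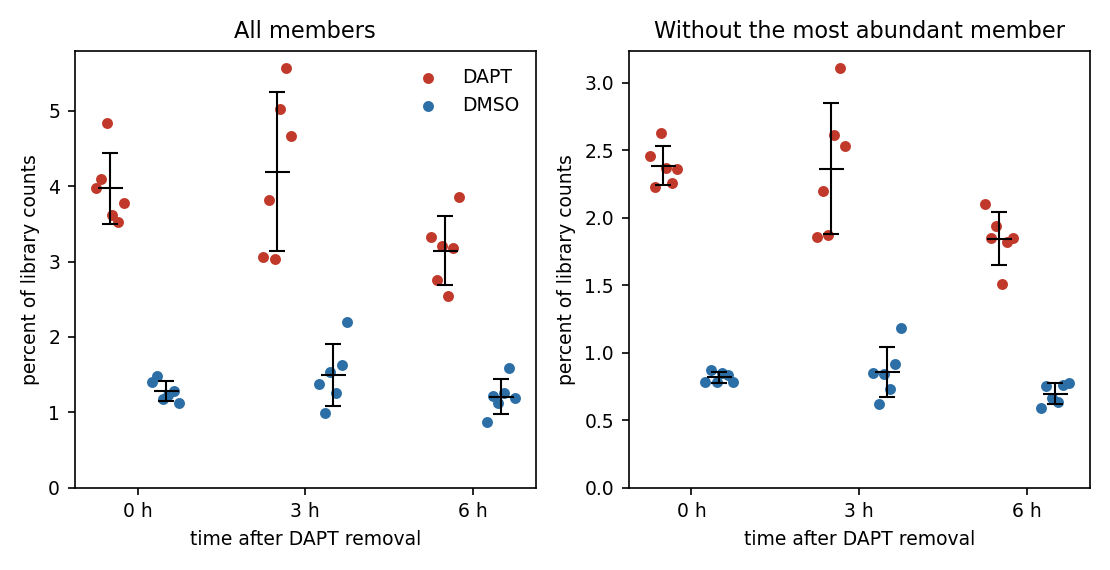
Percent of the counts of each library that fell on the 98 members (left) and on the members without TRINITY_DN3406_c0_g2 (right), for DAPT in red and DMSO in blue at 0 h, 3 h and 6 h after removal, with mean and SD (n = 6 libraries). Without the most abundant member the DAPT means are 2.39%, 2.36% and 1.84% and the DMSO means 0.817%, 0.858% and 0.698%.

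The members came from the whole range of abundance. In DMSO at 0 h 4 members lay under 1 CPM, 43 between 1 and 10 CPM, 32 between 10 and 100 CPM and 19 at 100 CPM or more. In this order the classes held 4.08%, 43.9%, 32.7% and 19.4% of the members. Of all genes at a mean CPM of at least 2 they held 0.0673%, 51.7%, 39.5% and 8.74%. Members of the lowest class reached the CPM minimum only through higher values in other groups. Their share therefore follows in part from the rule. The median member stood at 30.1 CPM in DAPT and 11.3 CPM in DMSO at 0 h, and at 23.4 CPM in DAPT and 10.9 CPM in DMSO at 6 h. The constant of 0.5 added to CPM makes the differences of genes that are scarce in DMSO smaller than their ratio of CPM.

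How the members changed with time within one treatment is a measure that the rule does not fix, since it treats the 3 times alike, although it used the same libraries. In DAPT animals most members had lower fitted levels 6 h after removal than at 0 h. The log2 change was negative in 81 of the 98 members (53.3% of all genes tested were negative), with a median of -0.30 and quartiles of -0.56 and -0.10, against a median of -0.03 over all genes. Set against the mean DAPT library of 0 h, each of the 6 DAPT libraries of 6 h had a median change of the members below 0, between -0.52 and -0.20 (mean -0.30, SD 0.12). In edgeR's test 6 members were called lower and 0 higher, where 0.212% of all genes were called lower and 0.326% higher. DESeq2 called 7 members lower and 0 higher, where it called 0.775% of all genes lower and 1.47% higher. Without adjustment, edgeR's p was under 0.05 for 28 lower members and 1 higher one, and for 7.26% of all genes on the lower side and 6.9% on the higher side. With library totals in place of TMM, the median change was -0.49 for the members and -0.21 for all genes.

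In DMSO animals the median change of the members from 0 h to 6 h was -0.05, with 52 members negative and 46 positive, against -0.02 over all genes. By edgeR's test 0 members were called, as were 0% of all genes, and 14 members had an unadjusted p under 0.05, 6 of them lower (4.17% of all genes) and 8 higher (7.06%). DESeq2 called 1 member lower (0.0245% of all genes, with 0.0653% called higher), TRINITY_DN41410_c0_g1, which was the lowest in the edgeR fit as well (log2 change -1.23, SE 0.24, edgeR adjusted p = 0.14; DESeq2 adjusted p = 0.0155). The change of the difference between treatments from 0 h to 6 h, which is the change in DAPT minus that in DMSO, had a median of -0.25 and was negative in 73 members, against a median of -0.01 and 50.9% negative over all genes. It is built from differences that the rule used. In edgeR's test of this change 0 members were called, where 0.00816% of all genes were called lower and 0% higher, and the lowest adjusted p of a member was 0.084. Without adjustment 15 members were lower (2.23% of all genes) and 1 was higher (1.66%). DESeq2 called 2 members lower (0.0245% of all genes), TRINITY_DN11146_c0_g1 and TRINITY_DN1523_c0_g1.

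Between 0 h and 3 h no member was called in either treatment. The median log2 change was 0.04 in DAPT and 0.07 in DMSO, with 56 and 60 members positive. With library totals these medians were -0.23 and -0.04, where those of all genes were -0.28 and -0.14. By edgeR's test 0 members were called in DAPT and 0 in DMSO, as were 0% of all genes in both. In DAPT 7 members had an unadjusted p under 0.05, 4 lower (3.75% of all genes) and 3 higher (4.9%). In DMSO 2 members had, both lower (6.14% of all genes, with 3.12% on the higher side). DESeq2 called 0 members in either, and of all genes it called 0.0245% lower and 0.343% higher in DAPT and 0.0163% lower and 0% higher in DMSO. The highest change in DAPT at 3 h was that of TRINITY_DN286_c0_g1, at 0.96 (SE 0.27, edgeR adjusted p = 0.224). DAPT 3 h replicate 3 had lower values of the members than the rest of its group, with a median deviation of -0.50, and without it the median change in DAPT was 0.10 with 0 members called (0.00813% of all genes were called lower and 0.268% higher). DMSO 3 h replicate 6 had higher values, with a median deviation of 0.35, and without it the median change in DMSO was -0.00.

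**Figure D4:**
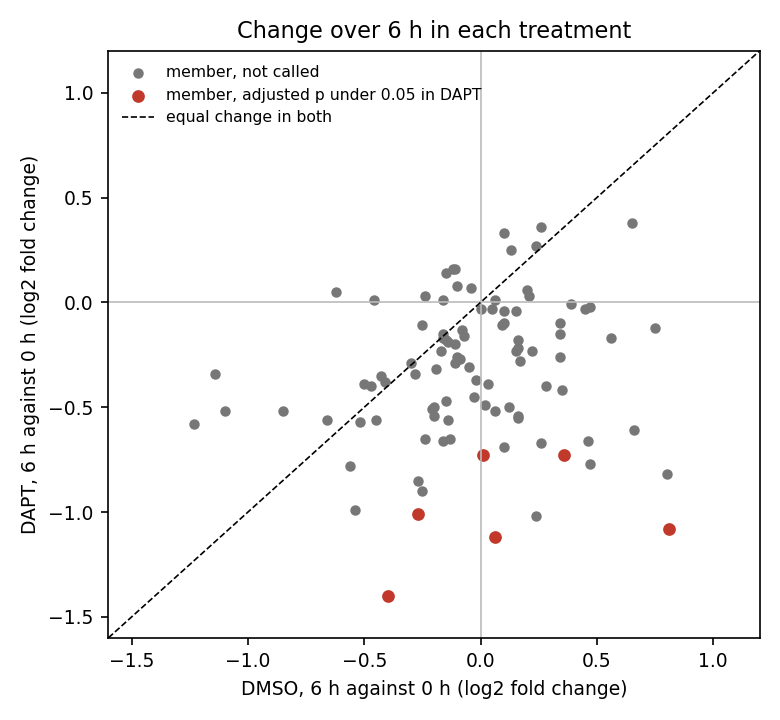
Fitted log2 fold change from 0 h to 6 h in DAPT (vertical axis) and in DMSO (horizontal axis) for each of the 98 members, with the 6 members called in DAPT in red and a dashed line where both changes are equal. In DAPT 81 members lie below 0, against 52 in DMSO, and the red points lie between -1.40 and -0.73 on the vertical axis.

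Among the 6 members called lower in DAPT at 6 h, TRINITY_DN3153_c0_g1 changed most. It lay at 2.4 to 4.5 CPM (median 3.08) at 6 h in DAPT, against 7.35 to 10.3 (median 8.33) at 0 h, and the 2 sets of libraries did not overlap. The change was -1.40 on the log2 scale, 2.64-fold (SE 0.25, edgeR adjusted p = 0.0187). In DMSO the gene lay at 0.684 to 1.21 CPM (median 0.93) at 6 h and 0.582 to 2.13 (median 1.13) at 0 h, so that at 6 h the DAPT libraries were still above the DMSO libraries.

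TRINITY_DN2334_c0_g1 stood at 9.4 to 23.1 CPM (median 15.7) in DAPT at 6 h, against 23.3 to 41 (median 35.2) at 0 h, with all 6 later libraries below all 6 earlier ones. Its change was -1.12 (SE 0.27, edgeR adjusted p = 0.0472), while the DMSO medians were 3.71 CPM at 6 h and 3.96 CPM at 0 h. TRINITY_DN11146_c0_g1, which was singled out after its values were seen, had a change of -1.08 (SE 0.25, edgeR adjusted p = 0.0354). Its difference between treatments shrank most of all members, with 2.62 at 0 h, 1.73 at 3 h and 0.94 at 6 h. At 6 h its DAPT libraries, at 4.84 to 13.1 CPM (median 8.92), overlapped with the DMSO libraries at 2.55 to 9.19 CPM (median 4.07).

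TRINITY_DN2171_c0_g1, one of the members with the largest differences, lay at 2.61 to 9.17 CPM (median 4.85) in DAPT at 6 h, against 7.26 to 13.6 (median 9.84) at 0 h. A single library, replicate 1, reached into the range of 0 h. The change was -1.01 (SE 0.22, edgeR adjusted p = 0.0257), and the DMSO medians were 0.374 CPM at 6 h and 0.422 CPM at 0 h. TRINITY_DN5094_c0_g1 had 14.9 to 23.8 CPM (median 17.5) at 6 h and 21.4 to 39.8 (median 30.9) at 0 h in DAPT, a change of -0.73 (SE 0.14, edgeR adjusted p = 0.0188). TRINITY_DN1523_c0_g1 had 116 to 179 CPM (median 141) at 6 h and 175 to 289 (median 239) at 0 h in DAPT, also a change of -0.73 (SE 0.16, edgeR adjusted p = 0.0257). Both genes overlapped between the times only at the edges, and both stayed apart from DMSO at 6 h.

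The count of 6 depended on the libraries. Leaving out replicate number 1 gave 11 members called in DAPT at 6 h, 10 lower (1.11% of all genes) and 1 higher (1.06%). Leaving out number 2 gave 3, all lower (0.114% of all genes, with 0.163% called higher). Leaving out number 3, 4, 5 or 6 gave 0 members, and over all genes 0 calls without number 3, 4 or 6 and 1 call on the lower side (0.00817%) without number 5. The median change of the members stayed between -0.34 and -0.23. A fit of the DAPT libraries alone called 1 member lower, TRINITY_DN3153_c0_g1 (0.00843% of all genes were, and 0.0675% were called higher). Scaling by library totals called 3 members lower (0.0816% of all genes, with 0.0735% called higher).

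The other end of the range was small. The highest changes in DAPT at 6 h were 0.38 in TRINITY_DN1159_c0_g1 (SE 0.21, edgeR adjusted p = 0.429) and 0.36 in TRINITY_DN2863_c0_g1 (SE 0.15, edgeR adjusted p = 0.255). TRINITY_DN1159_c0_g1 stood at 82.7 to 133 CPM (median 106) at 6 h in DAPT, against 35.4 to 98.7 (median 54.1) in DMSO, and at 63 to 105 (median 81.9) at 0 h in DAPT, against 20.1 to 53.4 (median 39) in DMSO. Its medians were higher at 6 h than at 0 h in both treatments. In TRINITY_DN2863_c0_g1, 5 of the 6 DAPT libraries of 6 h lay at 20.1 to 22.2 CPM, above all those of 0 h at 14.1 to 16.8 CPM, and replicate 1 lay at 10.6 CPM. Without replicate number 1 this gene was called, with a change of 0.48 (edgeR adjusted p = 0.0473).

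By abundance, the median change from 0 h to 6 h in DAPT was -0.67 in the 4 members under 1 CPM in DMSO at 0 h, -0.47 in the 43 between 1 and 10 CPM, -0.25 in the 32 between 10 and 100 CPM and -0.15 in the 19 above. The DMSO libraries of 0 h that set these classes are not part of that change. The DAPT libraries of 0 h, from which the change is measured, did take part in choosing the members. Members scarce in DMSO needed high DAPT values to reach the CPM minimum, so the classes are not free of the choice. The rule also asked for a difference of at least 0.7 at 6 h. The median difference at 0 h was 2.49, 1.56, 1.23 and 1.43 in these classes, so they did not have the same room to fall. Whether abundance itself goes with the change was not tested.

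To read the difference in libraries that did not choose the genes, the rule was applied to 5 of the 6 replicate numbers and the chosen genes were read in the libraries of the sixth, for each number in turn. The 6 choices held 92 to 105 genes, of which 84 to 93 were members. In the unused libraries the median difference of the chosen genes averaged 1.46 ± 0.23 at 0 h, 1.42 ± 0.28 at 3 h and 1.16 ± 0.30 at 6 h (mean ± SD over the 6 numbers), against 1.46, 1.41 and 1.18 in the libraries that chose them. The medians over all genes in the unused libraries lay between -0.09 and 0.14. The share of chosen genes with a positive difference was 95.7% to 100% at 0 h, 90.7% to 100% at 3 h and 79% to 98.9% at 6 h. The lowest median, 0.62, came from number 4 at 6 h, which holds DMSO 6 h replicate 4, and the next lowest were 0.99 for number 3 at 3 h and 1.03 for number 2 at 6 h. The 6 readings share most of their genes and are not independent of each other.

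**Figure D5:**
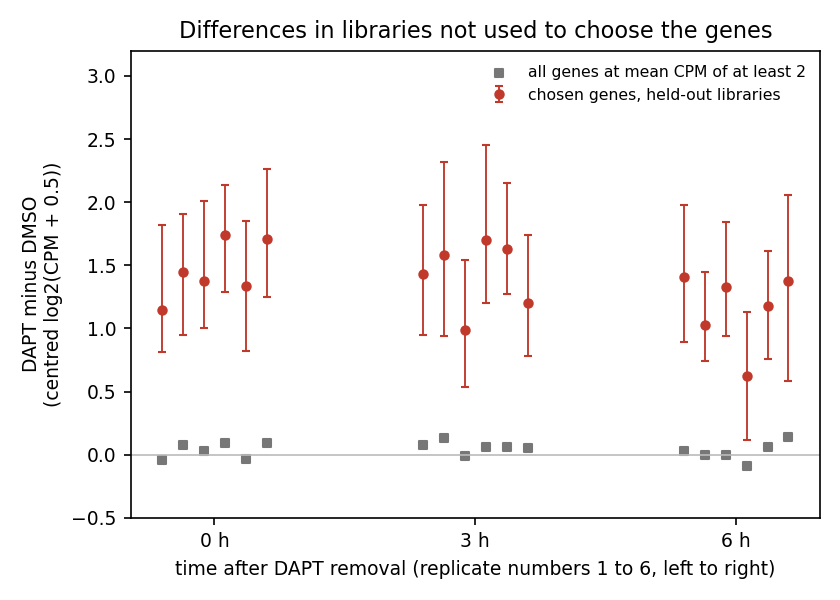
Median difference between DAPT and DMSO (centred log2(CPM + 0.5)) of genes chosen with 5 replicate numbers and read in the libraries of the sixth (red points, bars from lower to upper quartile of the genes), and the median of all genes at a mean CPM of at least 2 in the same libraries (grey squares), for numbers 1 to 6 from left to right at each time. The red points lie between 0.62 and 1.74 and the grey squares between -0.09 and 0.14.

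Members differed in how reproducible they were. After subtracting the group mean, the SD of the centred log2 values ranged from 0.19 to 1.21, with a median of 0.41, against 0.37 over all 10405 genes. The steadiest was TRINITY_DN7822_c0_g1. It lay at 68.2 to 112 CPM (median 83.7) in DAPT at 0 h and 67.6 to 86.8 (median 72) at 6 h, against 41 to 49.1 (median 47.4) and 32.8 to 49.8 (median 41.1) in DMSO. Its differences of 0.89, 0.96 and 0.88 were modest, and no library of one treatment entered the range of the other at any time. TRINITY_DN233_c0_g1 was next, with an SD of 0.21 and differences of 0.85, 0.89 and 1.03, and it too was separate at all 3 times.

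The least steady member was TRINITY_DN4094_c0_g1, singled out after its values were seen. In DAPT at 0 h 5 libraries lay at 1.47 to 2.97 CPM and replicate 3 at 103 CPM, and at 6 h replicate 3 lay at 46.7 CPM against 2.12 to 14.4 in the other 5. The DMSO libraries lay at 0.62 to 1.8 CPM at 0 h and 0.889 to 1.83 at 6 h. The differences of this gene were 1.54, 1.32 and 2.07. Its DAPT mean at 0 h, 19 CPM, rests largely on replicate 3, and the medians at 0 h were 2.16 CPM in DAPT and 1.12 CPM in DMSO. The member whose difference grew most from 0 h to 6 h, TRINITY_DN11231_c0_g1, was also among the least steady, with an SD of 0.89. Its differences were 1.61, 1.38 and 2.33, and its treatments overlapped at 0 h and 3 h and were separate at 6 h.

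Within groups, the deviations of different members were weakly related. Over the 4753 pairs of members, the median correlation of their deviations from the group means across the 36 libraries was 0.15 (quartiles -0.13 and 0.39), against 0.007 (-0.30 and 0.32) for pairs of all genes. The points of each such correlation are libraries that share their depth and scaling. A first component held 36.1% of the variance of the members' deviations, a share that was not set against that of other genes. It had 73 members on one side and 25 on the other. Both sides had median differences of 1.47 at 0 h and 1.44 at 3 h, and at 6 h these were 1.23 and 1.08. The pair that deviated most alike was TRINITY_DN1822_c0_g1 and TRINITY_DN3406_c0_g2, both among the most abundant members, with r = 0.96 over 36 libraries.

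The identifiers also show which genes share a DN number, and such genes are called a cluster here. A cluster in this sense can join different components (c0 and c1 in the identifier), so its genes need not come from the same reads. Genes of a cluster may share sequence, and the sources used here do not say how shared reads were divided between them. Of the 98 members, 18 had another listed gene in their cluster, which is 18.4% of the members and 7.5% of all genes. These 18 fell into 13 clusters, of which 5 held 2 members each. Values of these genes are uncertain where reads match more than 1 of them.

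The 5 pairs ranged from nearly identical to opposed. TRINITY_DN3406_c0_g1 and TRINITY_DN3406_c0_g2 deviated together with r = 0.93 over 36 libraries, the 2 genes of DN1822 with 0.85, and the 2 of DN343 with 0.67. TRINITY_DN3192_c0_g1 and TRINITY_DN3192_c1_g1 had r = -0.48, although both were higher in DAPT at all times, by 1.21, 1.49 and 0.97 and by 2.08, 1.66 and 2.02. The pairs of DN343 and DN3192 join different components, while those of DN1822, DN2187 and DN3406 lie in the same component. Of the 13 genes in these clusters that were not members, 11 had differences between -0.7 and 0.7 at all 3 times. In DN69, the member TRINITY_DN69_c0_g1 averaged 2118 ± 396 CPM in DAPT at 0 h and 899 ± 313 in DMSO, while TRINITY_DN69_c0_g2 averaged 537 ± 51.5 CPM in DAPT and 525 ± 82.2 CPM in DMSO (SD, n = 6 each). The differences of this neighbour were 0.09, -0.01 and -0.08.

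The members nearest the threshold were TRINITY_DN41080_c0_g1, TRINITY_DN2663_c0_g1 and TRINITY_DN14142_c0_g1, whose smallest differences were 0.709, 0.712 and 0.714, in each case at 6 h. Just outside were TRINITY_DN18236_c0_g1 with 0.695, TRINITY_DN7493_c0_g1 with 0.693 and TRINITY_DN12613_c0_g1 with 0.691. The scarcest members were TRINITY_DN1485_c0_g1 and TRINITY_DN14142_c0_g1, with mean CPM of 2.13 and 2.56, and the nearest genes below the minimum were TRINITY_DN2890_c0_g1 and TRINITY_DN14103_c0_g1, with 1.97 and 1.95. TRINITY_DN2663_c0_g1 lay at 301 to 426 CPM (median 370) in DAPT at 6 h, against 174 to 331 (median 223) in DMSO. Its treatments overlapped at 6 h and were separate at 0 h and 3 h.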

How the data were processed

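Reads came from strand-specific mRNA libraries of whole animals sequenced at 100 bp. Per the labels' protocols, adapters, polyA and splice leader sequences were trimmed, and reads of quality under 20, of under 30 bp or with undetermined bases were dropped. RSEM, Bowtie2 and DESeq2 1.18.1 are named, without their roles, per the submitters' processing notes. The authors deposited expected counts per gene in 1 table of 36 columns, and 98.95% of the values are not whole. The lowest deposited value is 0.09, so genes at 0 in any library are outside it. The assembly behind the identifiers is not described in the sources used here.

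Differences that chose members were computed on the deposited values. For tests, values were rounded to whole counts (186 became 0), filtered with filterByExpr and scaled by TMM, and edgeR 4.0.16 (R 4.3.3) fitted a quasi-likelihood F test over all 36 libraries with 6 group means, BH adjusted over 12253 genes. The SE of a log2 fold change is that implied by its F statistic. CPM in the text are TMM scaled, with medians, ranges or mean ± SD of 6 libraries. The sources do not say that replicates came from separate cultures. The p-values set each difference against the spread between these libraries, taken as independent, and need not hold for other cultures. Precision rests on totals of 5692414 to 15310480 counts per library.

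Named members were those with the largest mean difference (4), the highest DAPT level (4), the most negative and most positive change from 0 h to 6 h in DAPT (2 each), the smallest within-group SD (2), the most correlated pair, those nearest the limits, and up to 4 called over time. A further 11 were named after their values were seen. Members, lists and this rule were chosen with earlier results of these data known. Alternatives were RLE factors, library totals, DESeq2 1.42.0, no filter, a replicate block, fits of one treatment, left-out libraries and other settings of the membership rule. Scripts were tested on simulated counts of DAPT at 6 h against 0 h. There 59% of 2-fold and 92% of 4-fold changes were recovered, with 4 false calls. Smaller changes were not simulated, so a member that was not called may still have changed.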

Additional observations from a re-analysis of the deposited data

Results flagged for a closer look

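In each of the 6 groups, a library far from the other 5 was looked for in 31 named members, in the share of counts of the members and in their median deviation, 198 checks in all. Of these, 25 found one, where chance would give about 9.9 for genes picked without regard to their values. Some of the 31 were named for a large spread or an extreme change, and the genes share their libraries. The 25 therefore cannot be set against the 9.9. All 25 were in single genes.

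In DAPT libraries, TRINITY_DN4094_c0_g1 stood at 103 CPM in replicate 3 of 0 h, against 1.47 to 2.97 in the other 5, and at 46.7 CPM in replicate 3 of 6 h, against 2.12 to 14.4. TRINITY_DN69_c0_g1 stood at 2881 CPM in the same 0 h library, against 1861 to 2222. In replicate 5 of 0 h, TRINITY_DN286_c0_g1 stood at 12.5 CPM, against 33.7 to 43.6, and TRINITY_DN41410_c0_g1 at 12 CPM, against 16.9 to 19.8. TRINITY_DN2863_c0_g1 stood at 16.8 CPM in replicate 6 of 0 h, against 14.1 to 14.6.

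At 3 h in DAPT, TRINITY_DN286_c0_g1 stood at 129 CPM in replicate 2, against 40.3 to 61.6, and TRINITY_DN2663_c0_g1 at 515 CPM in the same library, against 364 to 419. TRINITY_DN1159_c0_g1 stood at 132 CPM in replicate 6, against 79.8 to 98.8. At 6 h in DAPT, replicate 1 held TRINITY_DN2171_c0_g1 at 9.17 CPM, against 2.61 to 4.99, TRINITY_DN14142_c0_g1 at 4.19 CPM, against 1.91 to 2.3, and TRINITY_DN2863_c0_g1 at 10.6 CPM, against 20.1 to 22.2. Replicate 6 of 6 h held TRINITY_DN3406_c0_g2 at 23945 CPM, against 9337 to 13734.

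In DMSO libraries, replicate 6 of 3 h was the high one in 6 members. These were TRINITY_DN3406_c0_g2 at 11610 CPM, against 4582 to 7201, TRINITY_DN1822_c0_g1 at 1882 CPM, against 865 to 1188, and TRINITY_DN11231_c0_g1 at 1246 CPM, against 155 to 346. The other 3 were TRINITY_DN41080_c0_g1 at 17.1 CPM, against 4.88 to 9.21, TRINITY_DN3192_c1_g1 at 5.97 CPM, against 1.18 to 2.46, and TRINITY_DN4094_c0_g1 at 3.65 CPM, against 0.285 to 1.34.

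In replicate 3 of 0 h in DMSO, TRINITY_DN343_c0_g1 stood at 36.1 CPM, against 6.2 to 15.8, and TRINITY_DN343_c1_g1 at 46.4 CPM, against 21.9 to 30.7. TRINITY_DN14142_c0_g1 stood at 2.36 CPM in replicate 2 of 0 h, against 1.36 to 1.49, and TRINITY_DN1485_c0_g1 at 0.685 CPM in replicate 5 of 0 h, against 0.961 to 1.11. At 6 h, TRINITY_DN2004_c0_g1 stood at 5.35 CPM in replicate 5, against 1.15 to 2.54, and TRINITY_DN4094_c0_g1 at 1.83 CPM in replicate 4, against 0.889 to 1.24.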

How the results depend on the processing

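The number of members was 98, and 82 to 119 under other constants, scalings, CPM minima, thresholds and medians in place of means, 92 to 105 without one replicate number. It was 105 without DMSO 6 h replicate 4, 101 without DAPT 3 h replicate 3 and 103 without DMSO 3 h replicate 6, the last 2 added after seeing the data. The 6 members called in DAPT between 0 h and 6 h became 3 with library totals (2 of the 6 among them), 1 in the fit of DAPT libraries, and 0 to 11 without one replicate number, and the cause was not tested. With RLE factors, DESeq2, no filter, the replicate block or single libraries left out the count was 5 to 7. In DMSO between 0 h and 6 h the count was 1 by DESeq2 and 0 in the other 14 settings, and at 3 h it was 0 in both treatments in all 15. For the change in DAPT minus that in DMSO at 6 h, added after seeing the data, the count was 0, 2 by DESeq2, 0 to 1 without one replicate number and 0 in the other settings, the replicate block among them. The median change of the members in DAPT from 0 h to 6 h was -0.30, and -0.49 with library totals, which moved the median of all genes to -0.21, so that members lay -0.28 from it. Library totals also brought the median of all genes to -0.28 at 3 h in DAPT, and to -0.14 at 3 h and -0.19 at 6 h in DMSO, where TMM gave -0.01, -0.01 and -0.02. No named change over time turned its sign in any of the 15 settings. TRINITY_DN3153_c0_g1 was called in 11 of them (edgeR or DESeq2 adjusted p from 3.46e-06 to 0.209), TRINITY_DN5094_c0_g1 and TRINITY_DN1523_c0_g1 in 9, and TRINITY_DN2171_c0_g1, TRINITY_DN11146_c0_g1 and TRINITY_DN2334_c0_g1 in 8. Within each treatment, libraries of 3 h and 6 h were compared with those of 0 h by replicate number. Deviations of same-numbered libraries correlated between -0.61 and 0.60, and in each of the 4 pairs of groups 0 or 1 of 6 libraries correlated best with its own number. In DAPT 5 of the 6 same-numbered pairs correlated above 0.1 at 6 h and 2 at 3 h, and in DMSO 1 at 6 h and 0 at 3 h. Same-numbered libraries of DAPT and DMSO were not compared, so pairing of the samples is not excluded. With the replicate block 5 of the 6 were called, without TRINITY_DN2334_c0_g1 (adjusted p = 0.0652), and it changed no other call of a member between times.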
